A study of Drosophila melanogaster with 6 samples.

Results

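The genes of Drosophila melanogaster chromosome 4 were followed in RNA-seq libraries from unfertilized eggs. A gene was included when its FlyBase identifier lies on chromosome 4 in the dm6 annotation and it held at least 10 estimated reads in 3 or more of the 6 libraries. Of 13943 features in the deposited tables, 79 lie on chromosome 4, 6 of these were under the read minimum, 6 more were set aside by name (pan, apolpp, Hcf, gw and the ribosomal protein and translation factor genes there), and 67 remained. All 67 entered the comparison between groups. The choice of genes used no difference between the groups, but a gene with few reads can reach the minimum through the group in which it is higher.

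One set of mothers overexpressed MEK F53S, a gain-of-function form of the MAP kinase kinase known from RASopathies, and the other mothers overexpressed wild-type MEK. Each construct sat at the same genomic site in its own fly line, MTD-GAL4 drove it in the female germline of both lines, and both sets of females were mated to sterile males; the labels call the eggs unfertilized. Eggs laid within 0 to 30 min were pooled, and each group had 3 libraries that the submitters call biological replicates. Each group is 1 line, so the mutation and any other difference between the lines cannot be told apart, and the pooled eggs do not separate fewer eggs with a transcript from less of it per egg.

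Chromosome 4 is the small dot chromosome of the fly. Its genes sit among repeats and carry heterochromatin marks such as the histone H3 lysine 9 methylation set by eggless and bound by HP1a, yet most of them are transcribed. The chromosome-specific protein Pof binds its active genes. An unfertilized egg holds RNA loaded by the nurse cells and does not start the zygotic programme.

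Libraries held 37224814 to 48485330 estimated counts in MEK F53S eggs and 37342085 to 48756311 in wild-type MEK eggs. Dsor1, the fly gene for MEK, was listed at 3306, 2635 and 2398 TPM in MEK F53S eggs, against 3177, 2329 and 2784 TPM in wild-type MEK eggs, with overlapping ranges. Both lines carry a MEK transgene, so this level does not tell them apart. Of 6 maternal egg markers 5 were matched (osk, bcd, vas, gcl and grk), and their summed level was 1660 to 2216 TPM in MEK F53S eggs and 1942 to 2277 TPM in wild-type MEK eggs. The sum hides differences between these markers. bcd had 157, 200 and 193 TPM in MEK F53S eggs, against 568, 592 and 565 TPM in wild-type MEK eggs. gcl was also lower in MEK F53S eggs, at most 359 TPM, against at least 407 TPM. grk had 116, 86.5 and 106 TPM in MEK F53S eggs, against 55.7, 56.2 and 54.2 TPM in wild-type MEK eggs. The groups of osk and vas overlapped. The 12 eggshell markers held at most 22 reads in any library and 10 to 12 of them were at 0 in each. The 12 early zygotic markers summed to 43.8, 9.34 and 69.7 TPM in MEK F53S eggs, against 13.6, 14.6 and 15 TPM in wild-type MEK eggs, and 2 to 9 of them were at 0 in MEK F53S libraries and 9 in each wild-type MEK library. Most of each wild-type MEK sum was Sry-alpha, at 13.2, 14.4 and 14.2 TPM. Sry-alpha had 12.6, 5.52 and 12.1 TPM in MEK F53S eggs, so the low sum of replicate 2 does not mean that its other markers were lower than in wild-type MEK eggs. MEK F53S replicates 1 and 3 stood apart in this list, with sisA, a zygotic sex-determination gene, at 25.3 and 32.8 TPM, against 3.76 TPM in replicate 2 and at most 0.0840 TPM in wild-type MEK eggs. The 5 neural markers summed to 0.351 to 2.47 TPM in MEK F53S eggs and 0.289 to 0.605 TPM in wild-type MEK eggs, and most of this was Syt1, at 0.23 to 2.42 TPM, while elav, brp and nSyb were each at 0 or under 0.1 TPM in every library.

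Chromosome 4 was widely represented in the eggs. Of its 79 features, 73 (92.4%) held 10 reads in at least 3 libraries, whereas the share was 60.9% on X and 51.4% to 53.7% on 2L, 2R, 3L and 3R. Over all 6 libraries, 16 of the 67 genes averaged 100 TPM or more, 25 averaged 10 to 100 TPM, 9 averaged 1 to 10 TPM and 17 were under 1 TPM. The median gene of the set averaged 34.0 TPM, and the medians of the other arms, over their genes at the same read minimum, lay between 49.1 and 54.0 TPM. Genes were set aside by name on chromosome 4 only, while the other arms kept their ribosomal protein and translation factor genes. These medians are therefore over unlike sets. TPM is scaled for transcript length, so levels of different genes can be set side by side on this scale.

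A few genes dominated. The 8 genes with the highest mean level were Rad23, ATPsynbeta, Arf4, Gyf, 4E-T, ND-49, PlexA and PMCA, and together they gave 59.3% to 60.8% of the set's TPM in MEK F53S eggs and 56.2% to 58.8% in wild-type MEK eggs. Rad23, a ubiquitin receptor that also acts in nucleotide excision repair, was listed at 1155, 1308 and 1128 TPM in MEK F53S eggs, against 1581, 1244 and 1219 TPM in wild-type MEK eggs. ATPsynbeta, the catalytic beta subunit of the mitochondrial ATP synthase, stood second with 824, 919 and 847 TPM in MEK F53S eggs, against 730.2, 493 and 430.0 TPM in wild-type MEK eggs. No library of ATPsynbeta reached the lowest library of Rad23, and none of Arf4 reached the lowest of ATPsynbeta. From Arf4 downward the library ranges of neighbours nearly always overlapped, in 63 of the 66 adjacent ranks of the whole order, so single places in that order are not separated by the spread between libraries. Arf4, a small GTPase of Golgi traffic, was listed at 334, 271 and 286 TPM in MEK F53S eggs, against 276, 332 and 301 TPM in wild-type MEK eggs. PMCA, the plasma membrane calcium pump, had 137, 168 and 151 TPM in MEK F53S eggs, against 175, 139.9 and 157 TPM in wild-type MEK eggs. These values overlap between the groups for Arf4 and PMCA.

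**Figure D1:**
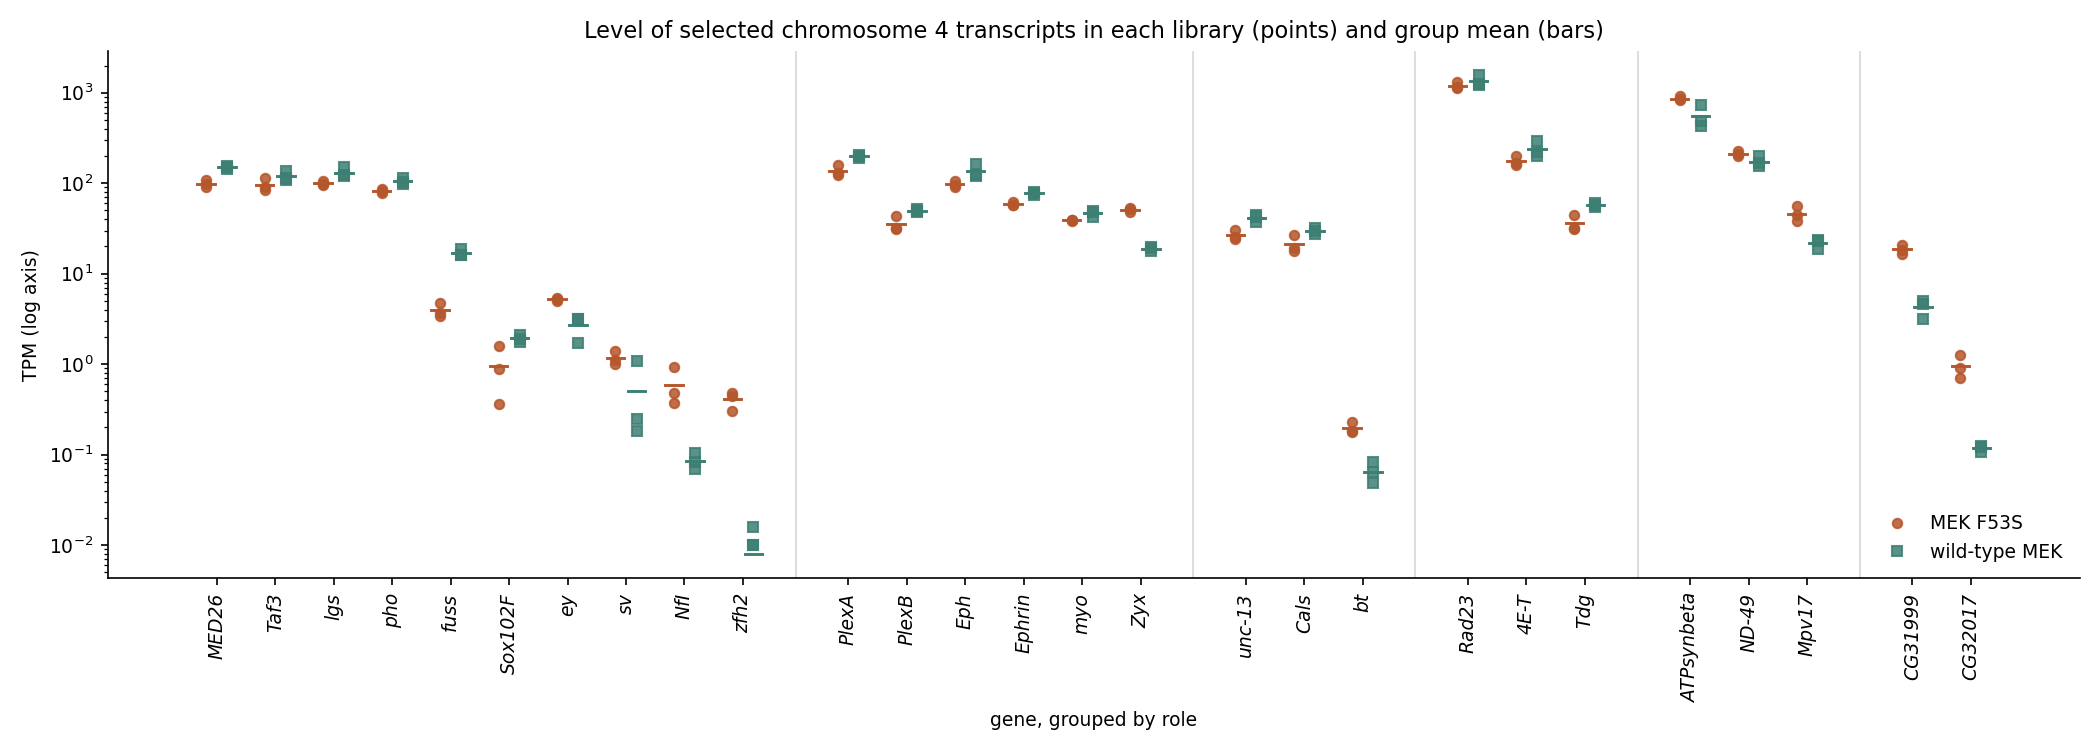
Levels of chromosome 4 genes in every library, in TPM on a log axis, with MEK F53S as orange circles, wild-type MEK as green squares and a short line at each group's mean; values under 0.01 TPM, which occur for zfh2 in wild-type MEK eggs, are drawn at 0.01. Rad23 lies above 1000 TPM in all 6 libraries, while fuss and zfh2 show separate groups in opposite directions.

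At the other end of the scale were genes with few reads in any library. Ekar, a glutamate receptor subunit of the kainate type, had 15, 0 and 14 reads in MEK F53S eggs, against 0, 0 and 12 reads in wild-type MEK eggs and so just met the minimum of 10 reads in 3 libraries. Just outside it was ci, the transcription factor of Hedgehog signalling, with 5, 10 and 33 reads in MEK F53S eggs, against 0, 7 and 0 reads in wild-type MEK eggs. The other genes under the minimum were onecut, with up to 10 reads in a library, RhoGAP102A, with up to 9, and JYalpha, dpr7 and CG32006, which had no read in any library. Spread between libraries was wide among the low genes. The coefficient of variation of library-scaled counts (CPM) had a median of 8.88% in MEK F53S eggs and 9.08% in wild-type MEK eggs over the 41 genes with a mean of at least 10 TPM, but of 28.8% in MEK F53S eggs and 37.7% in wild-type MEK eggs over the 26 genes under 10 TPM.

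The genes also shared a structure that the selection did not use. Their median span in the annotation was 10426 bases, against medians of 2528.5 to 3400 bases for the genes of the other arms at the same read minimum. Here too the other arms kept their ribosomal protein and translation factor genes. Annotated transposable elements lay within the span of 56 of the 67 genes (83.6%) and covered 18.8% of their summed span, whereas 5.97% to 9.72% of genes on the other arms held one. The median length of the quantified transcripts, as the deposited tables give it, was 1412 bases, against 1082 to 1266 bases on the other arms. Introns made up a median of 53.9% of the span on chromosome 4 and 13.1% to 19.0% elsewhere.

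The comparison of the lines asked which of these transcripts differ when the maternal MEK is the F53S form. More chromosome 4 genes were lower than higher in MEK F53S eggs, and the falls were small. By the quasi-likelihood test on counts, 22 of the 67 genes (32.8%) were called lower at an adjusted p under 0.05, where 12.9% of all 7539 genes tested were called lower. A further 12 of the 67 (17.9%) were called higher, where the share over all genes tested was 12.3%, and 33 were not called. In either direction this is 34 of 67 genes (50.7%), against 25.2% of all genes tested. Of the lower calls 20 were under 2-fold, between 1.27-fold and 1.85-fold, and only fuss and Sox102F, 2.99% of the genes, fell by more than 2-fold, where 2.08% of all genes did. Of the higher calls 9 were at least 2-fold, which is 13.4% of the genes, against 5.07% over all genes tested. One of these, zfh2, met the read minimum only through the MEK F53S libraries, and without it 11 were higher and 8 of them by at least 2-fold. The CPM values of the groups did not overlap for 30 genes that were lower (44.8%) and 15 that were higher (22.4%), where the share over all genes tested was 21.2% in each direction. The 15 include zfh2 and CG1674, which met the read minimum only through the MEK F53S libraries, so the filter favoured their separation. They also include dati and CG1909, with 0, 7 and 22 reads and with 14, 0 and 0 reads in wild-type MEK eggs. The MEK F53S libraries did most to bring these over the minimum, so the filter favoured them as well. The median log2 fold change was -0.24 over the 67 genes and 0.05 over all genes tested, and the arm medians ranged from 0.01 on X to 0.08 on 3R.

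Genes of the other arms were called lower in 13.2% of cases on X, 12.8% on 2L, 11.5% on 2R, 12.8% on 3L and 12.1% on 3R. These shares are descriptions, and no test compared the arms, which kept the ribosomal protein and translation factor genes set aside on chromosome 4. The split of higher to lower calls depended on the scale. It was 12 to 22 with the scaling used here, where 12.3% of all genes tested were higher and 12.9% lower. With library size alone it was 13 to 15 (19.4% and 22.4% of the genes), where 23.6% of all genes were higher and 6.7% lower. With each gene's effective length as an offset it was again 13 to 15, against 9.59% and 11.7% of all genes. With limma on log2(TPM + 1) it was 8 to 6 (11.9% and 8.96%), which is near the 13.9% higher and 7.59% lower of all genes. Scaling by library size alone raised the median of all genes by 0.21. Such a change of scale moves the fold changes of all genes by nearly the same amount. The set's median therefore lay 0.29 under that of all genes on both scales, which is no check of the difference. The genes called lower on every one of these 4 scales were Tdg, Ephrin, MED26, unc-13, fuss and PlexA, and those called higher on all 4 were CG31999, ey, Mpv17, CG11076, ATPsynbeta, Zyx and CG32017, besides zfh2. Of these ey was not called at log2(TPM + 0.1). Calls of Ank, Crk, Rad23, Sox102F and Mitf were lost both with library size alone and with the length offset, that of Dyrk3 with library size alone, and those of myo and 4E-T with the offset alone. Single libraries also changed the counts. Without MEK F53S replicate 1 there were 7 higher and 17 lower calls (6.57% and 7.23% over all genes), without MEK F53S replicate 3 there were 5 and 16 (6.48% and 6.62%), and leaving out wild-type MEK replicate 2 gave 6 and 17 (5.4% and 7.54%). Without both MEK F53S replicates 1 and 3, the libraries highest in the zygotic markers, 2 higher calls (CG31999 and Zyx) and 2 lower calls (MED26 and fuss) remained, where 1.59% and 0.803% of all genes were called. The part of the zygotic transcripts in these results was not tested.

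**Figure D2:**
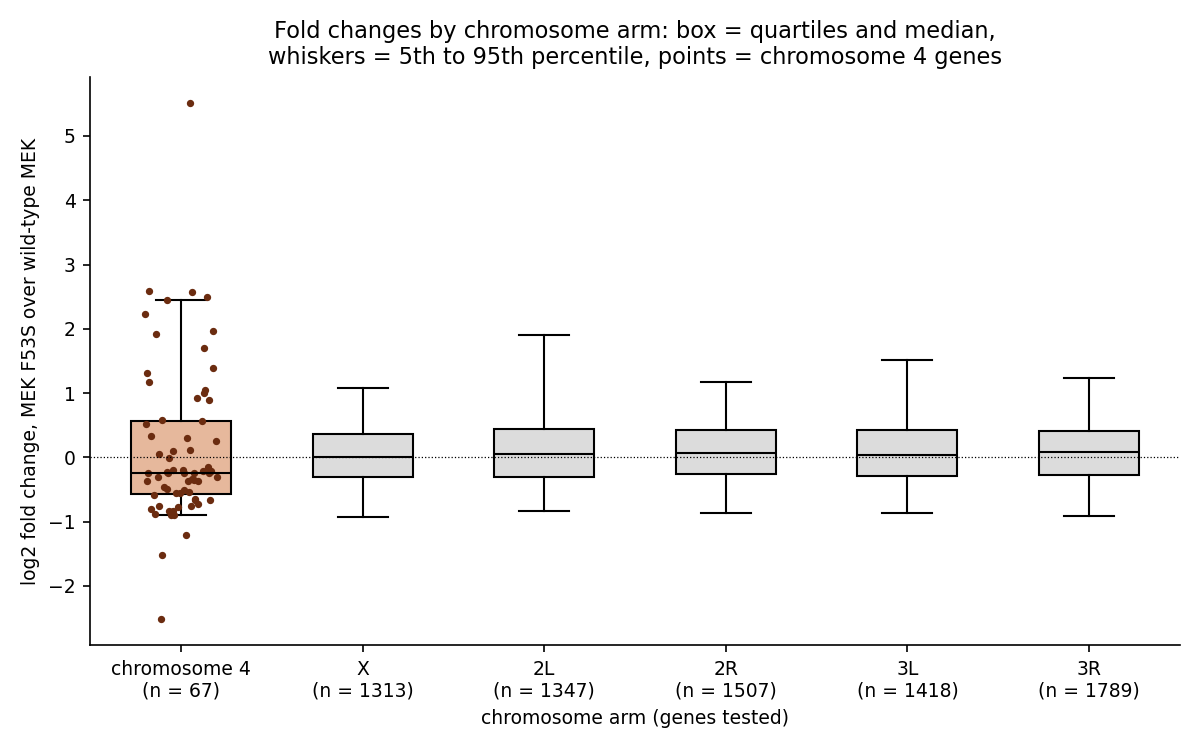
Log2 fold change of MEK F53S eggs against wild-type MEK eggs for the genes of chromosome 4 (box with each gene as a point) and of each other arm (boxes), with the median as the line in the box, the quartiles as its edges and the whiskers at the percentiles named in the title. The chromosome 4 median lies at -0.24 with quartiles at -0.57 and 0.57, and the medians of the other arms lie between 0.01 and 0.08.

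Direction went with abundance. Of the 41 genes with a mean of 10 TPM or more, 21 were called lower and 5 higher, where 14.3% and 13% of all genes at that level were called lower and higher. Of the 26 genes under 10 TPM, 7 (6 without zfh2) were called higher and 1, Sox102F, lower, where 9.55% and 6.62% of all genes at that level were called higher and lower. A gene with few reads is kept only if enough libraries hold them, which favours genes that differ. Restricted to the 54 genes with at least 10 reads in all 6 libraries, 11 were higher (20.4%) and 22 lower (40.7%), where 12.6% and 13.8% of all genes under the same restriction were higher and lower. Across all genes tested, lower calls were more frequent among long transcripts. The share was 10.2% of all genes under 2000 bases, 17.1% of those of 2000 to 4000 bases and 36.5% of longer ones. On chromosome 4, 14 of 46 genes under 2000 bases (30.4%), 6 of 16 genes of 2000 to 4000 bases (37.5%) and 2 of 5 longer genes were called lower, the last near the share of all genes of that length. The trend of fold change on length was also removed, an alternative chosen after the data were seen. With it 10 genes were higher (14.9%) and 26 lower (38.8%), against 11.8% and 14.1% of all genes. The higher share is near that of all genes, and lgs, CG11076 and ATPsynbeta lost their calls.

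**Figure D3:**
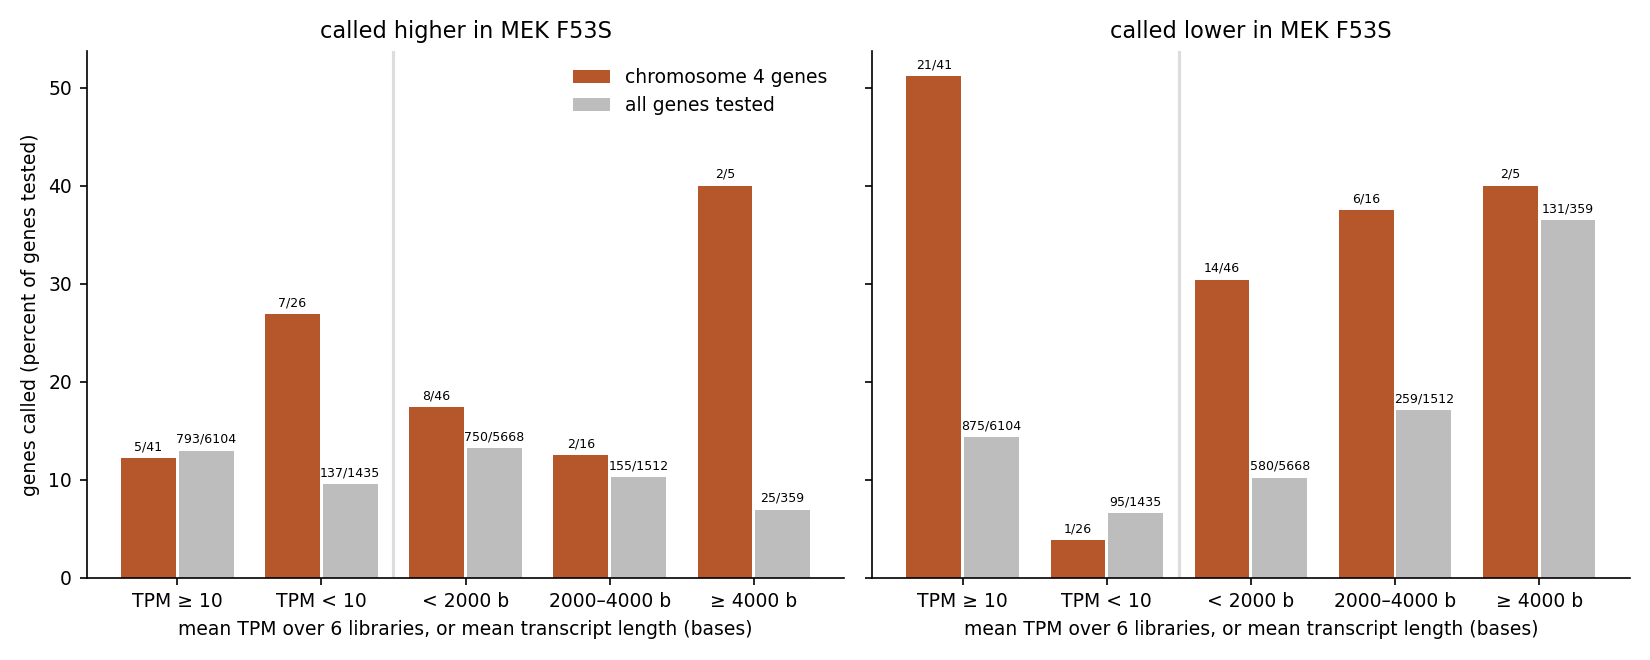
Percent of genes called higher (left) and called lower (right) in MEK F53S eggs, for chromosome 4 genes (orange bars) and all genes tested (grey bars), split at a mean of 10 TPM and by transcript length at 2000 and 4000 bases, with called over tested genes printed above each bar. Among chromosome 4 genes of 10 TPM or more 21 of 41 are called lower, and under 10 TPM 7 of 26 are called higher.

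The set took a smaller part of the reads in MEK F53S eggs. Its genes held 1.5%, 1.67% and 1.56% of all estimated counts in MEK F53S eggs, against 1.95%, 1.83% and 1.82% in wild-type MEK eggs. The groups did not overlap, and the means were 1.58% ± 0.0864 in MEK F53S eggs and 1.87% ± 0.0741 in wild-type MEK eggs (SD, n = 3 each). Reads of mitochondrially encoded genes, which are part of that total, made up 4.67% ± 0.553 in MEK F53S eggs and 8.73% ± 1.19 in wild-type MEK eggs (SD, n = 3 each). With those left out of the total the means were 1.65% ± 0.0813 in MEK F53S eggs and 2.05% ± 0.0785 in wild-type MEK eggs. On the TPM scale the set made up 0.521%, 0.590% and 0.531% in MEK F53S eggs, against 0.645%, 0.532% and 0.529% in wild-type MEK eggs. Here the groups overlapped, and wild-type MEK replicate 1 was the highest.

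**Figure D4:**
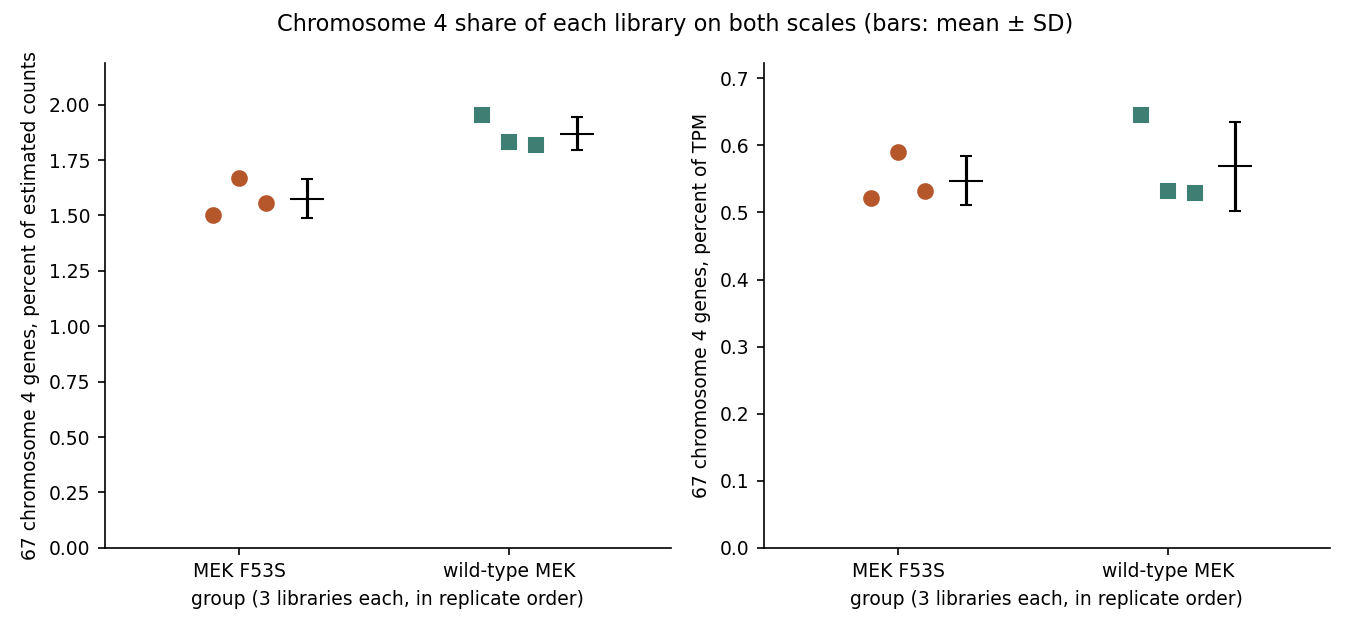
Share of each library taken by the 67 chromosome 4 genes, as percent of estimated counts (left) and as percent of TPM (right), with each library as a point and the mean ± SD of 3 libraries beside it. On counts the MEK F53S libraries lie at 1.5% to 1.67%, all under the wild-type MEK libraries, and on TPM the groups overlap.

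Of 14 tested genes in the list of signalling, 7 were called lower in MEK F53S eggs, 1 higher and 6 not at all, where 12.9% of all genes tested were lower and 12.3% higher (median log2 fold change -0.36). The list holds the kinase CaMKI but not CaMKII, which was not called and is given below. The lower ones included both plexins and the Eph receptor with its ligand, known for axon guidance. Plexins are receptors for semaphorins, and Ephrin is the membrane-bound ligand of the receptor tyrosine kinase Eph. PlexA had 122, 159 and 129.6 TPM in MEK F53S eggs, against 207, 189 and 199 TPM in wild-type MEK eggs. The MEK F53S libraries were all lower, with a fall of 1.75-fold (log2 fold change -0.81 ± 0.11 (SE), adjusted p = 0.00111). PlexB, the most proximal gene called, had 31.0, 43.0 and 32.4 TPM in MEK F53S eggs, against 52.4, 47.7 and 49.3 TPM in wild-type MEK eggs. Its groups did not overlap either (log2 fold change -0.76 ± 0.13 (SE), adjusted p = 0.00365). Eph was listed at 90.9, 107 and 96.5 TPM in MEK F53S eggs, against 163, 124 and 119 TPM in wild-type MEK eggs, and the highest MEK F53S library stayed under the lowest wild-type MEK library (log2 fold change -0.67 ± 0.11 (SE), adjusted p = 0.00336). Ephrin had 56.8, 61.8 and 57.4 TPM in MEK F53S eggs, against 78.2, 74.3 and 79.1 TPM in wild-type MEK eggs, again with no overlap (log2 fold change -0.64 ± 0.10 (SE), adjusted p = 0.00219). All 4 of these calls held when any single library was left out, but with limma on TPM those of PlexB and Eph were lost.

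Of the 3 ligands of the TGF-beta and activin family on the chromosome, myo fell, with 38.9, 39.4 and 38.6 TPM in MEK F53S eggs, against 49.2, 42.3 and 47.6 TPM in wild-type MEK eggs (log2 fold change -0.55 ± 0.10 (SE), adjusted p = 0.00399). For mav the log2 fold change was -0.20 (adjusted p = 0.249) and for Actbeta, at 4 to 27 reads in every library, it was -0.01 (adjusted p = 0.996). The adaptor Crk was called lower at -0.51 (adjusted p = 0.0459), and without MEK F53S replicate 1, 2 or 3 or wild-type MEK replicate 2 or 3 its adjusted p was 0.0886 to 0.164. Dyrk3, a kinase of the DYRK family and the most distal gene called, had 42.0, 46.3 and 44.8 TPM in MEK F53S eggs, against 50.9, 46.6 and 44.5 TPM in wild-type MEK eggs. Its TPM ranges overlap while its CPM ranges do not (log2 fold change -0.35 ± 0.11 (SE), adjusted p = 0.0379), and without MEK F53S replicate 1 or 3 or wild-type MEK replicate 2 or 3 its adjusted p was 0.0661 to 0.135. The one signalling gene that rose was Zyx, the fly zyxin, an actin-associated adhesion protein that also acts in Hippo signalling, with 48.4, 52.7 and 52.4 TPM in MEK F53S eggs, against 17.8, 19.9 and 19.1 TPM in wild-type MEK eggs. Every MEK F53S library lay far above the highest wild-type MEK library (log2 fold change 1.18 ± 0.13 (SE), adjusted p = 0.000489), and the call held without any single library.

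PIP4K, a lipid kinase, did not pass the test (log2 fold change 0.29 ± 0.27 (SE), adjusted p = 0.459), and 1 library decided that. It held 8220, 13575 and 12420 reads in MEK F53S eggs, against 13515, 5509 and 4542 reads in wild-type MEK eggs. Wild-type MEK replicate 1 lay at the level of the MEK F53S libraries, and without it the log2 fold change was 0.69 (adjusted p = 0.00969), a case singled out after its values were seen. CaMKI, Asator and mGluR, a kinase of the calmodulin-dependent family, a kinase of the tau-tubulin family and a metabotropic glutamate receptor, were not called, with log2 fold changes of -0.37 (adjusted p = 0.11), -0.33 (adjusted p = 0.0978) and 0.09 (adjusted p = 0.817).

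Transcription factors moved both ways. Of 14 tested genes in this list, 4 were called higher (with zfh2 among them), 6 lower and 4 not called, against 12.3% higher and 12.9% lower over all genes tested (median log2 fold change -0.28). The largest fall of the whole chromosome was in fuss, a member of the Ski/Sno family of corepressors, with 4.72, 3.45 and 3.69 TPM in MEK F53S eggs, against 18.9, 16.1 and 16.1 TPM in wild-type MEK eggs. It held 508, 454 and 517 reads in MEK F53S eggs, against 2902, 2040 and 2083 reads in wild-type MEK eggs, and each MEK F53S library lay far under each wild-type MEK library (log2 fold change -2.52 ± 0.17 (SE), adjusted p = 1.96e-05). The deposited transcript length of fuss was also shorter in MEK F53S eggs, at 1574 bases against 2460 bases in wild-type MEK eggs, and with effective length as an offset its log2 fold change was -1.63 (adjusted p = 0.000806). Its exons overlap those of sphinx and an antisense RNA on the other strand for 21.2% of their length. Reads of zfh2, which encodes a zinc-finger homeodomain protein, were almost all in MEK F53S eggs. It had 159, 111 and 200 reads in MEK F53S eggs, against 3, 5 and 0 reads in wild-type MEK eggs, which is at most 0.486 TPM in any library. Since only the MEK F53S libraries brought zfh2 over the read minimum, its difference is a description with no test. Of its exon length 18.7% overlaps Tdg on the other strand.

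The Pax family genes eyeless (ey), twin of eyeless (toy) and shaven (sv), known for eye and sensory organ development, differed among themselves. In ey there were 5.22, 5.35 and 5.02 TPM in MEK F53S eggs, against 3.17, 3.20 and 1.73 TPM in wild-type MEK eggs (log2 fold change 0.89 ± 0.26 (SE), adjusted p = 0.0346). The groups of ey did not overlap, but without MEK F53S replicate 1, 2 or 3 or wild-type MEK replicate 2 or 3 its adjusted p was 0.0515 to 0.119. For sv there were 114, 151 and 249 reads in MEK F53S eggs, against 56, 26 and 29 reads in wild-type MEK eggs, also apart (log2 fold change 1.92 ± 0.44 (SE), adjusted p = 0.0121), while its TPM overlapped, with the 29 reads of wild-type MEK replicate 3 listed at 1.08 TPM. For sv, without MEK F53S replicate 3 or wild-type MEK replicate 2 its adjusted p was 0.0515 to 0.0682. In toy there were 1.26, 1.62 and 1.28 TPM in MEK F53S eggs, against 1.59, 1.46 and 0.943 TPM in wild-type MEK eggs, with overlapping groups (log2 fold change 0.12 ± 0.30 (SE), adjusted p = 0.811). NfI, of the nuclear factor I family, had 119, 188 and 397 reads in MEK F53S eggs, against 42, 26 and 30 reads in wild-type MEK eggs (log2 fold change 2.50 ± 0.45 (SE), adjusted p = 0.00407). All 3 MEK F53S libraries were above every wild-type MEK library, with replicate 3 the highest.

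Among the more abundant regulators 4 were lower. lgs, the legless cofactor that links beta-catenin to transcription in Wnt signalling, had 98.7, 107 and 96.1 TPM in MEK F53S eggs, against 151, 122 and 119.5 TPM in wild-type MEK eggs (log2 fold change -0.55 ± 0.10 (SE), adjusted p = 0.00447). Taf3, a subunit of the general factor TFIID, had 83.2, 113 and 90.02 TPM in MEK F53S eggs, against 137, 108 and 115.1 TPM in wild-type MEK eggs, with a fall on the count scale (log2 fold change -0.59 ± 0.12 (SE), adjusted p = 0.00743) and overlap on the TPM scale. pho encodes a DNA-binding protein that recruits Polycomb complexes, and had 81.4, 87.3 and 78.2 TPM in MEK F53S eggs, against 97.0, 114.6 and 104 TPM in wild-type MEK eggs (log2 fold change -0.75 ± 0.14 (SE), adjusted p = 0.00492). For Mitf, of the family that regulates lysosomal genes, the change was -0.49 (adjusted p = 0.0436), but without MEK F53S replicate 1 or 3 or wild-type MEK replicate 1 or 2 its adjusted p was 0.0582 to 0.155. Sox102F, an HMG-box factor, held 210, 135 and 93 reads in MEK F53S eggs, against 352, 250 and 261 reads in wild-type MEK eggs (log2 fold change -1.21 ± 0.38 (SE), adjusted p = 0.0418). The Sox102F groups did not overlap, yet without MEK F53S replicate 2 or 3 or wild-type MEK replicate 1, 2 or 3 its adjusted p was 0.0539 to 0.113. The genes of the list that were not called were dati, Pur-alpha, toy and fd102C. Of these dati, a zinc-finger gene, had 75, 41 and 92 reads in MEK F53S eggs, against 0, 7 and 22 reads in wild-type MEK eggs, apart in reads, but its TPM overlapped, with 0.308 TPM in MEK F53S replicate 2 and 0.317 TPM in wild-type MEK replicate 3. It did not pass the test (log2 fold change 2.44, adjusted p = 0.144), and the MEK F53S libraries did most to bring it over the read minimum. Pur-alpha, a nucleic acid binding protein, had 51.2, 54.7 and 60.9 TPM in MEK F53S eggs, against 40.1, 76.4 and 68.4 TPM in wild-type MEK eggs, with overlapping groups (log2 fold change -0.30, adjusted p = 0.368). The forkhead gene fd102C had no read in MEK F53S replicate 2 and 9 to 63 in the others.

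The Mediator subunit gene MED26, which lay outside the lists, gave the lowest adjusted p of all falls after fuss. It had 91.8, 108 and 97.0 TPM in MEK F53S eggs, against 156, 143 and 152 TPM in wild-type MEK eggs. Every MEK F53S library lay well under the lowest wild-type MEK library (log2 fold change -0.89 ± 0.10 (SE), adjusted p = 0.00042), and the call held without any single library and on every scale named above.

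In the list drawn up for RNA, DNA and protein maintenance, 3 of 5 genes were lower and none higher, where the shares of all genes tested were 12.9% lower and 12.3% higher. Tdg, a thymine DNA glycosylase, had 31.7, 45.1 and 31.0 TPM in MEK F53S eggs, against 54.8, 58.1 and 60.0 TPM in wild-type MEK eggs, with no overlap (log2 fold change -0.84 ± 0.15 (SE), adjusted p = 0.0037). 4E-T, a partner of the cap-binding protein that represses and localises messenger RNA, had 161, 199 and 167 TPM in MEK F53S eggs, against 292, 200.4 and 221 TPM in wild-type MEK eggs (log2 fold change -0.67 ± 0.12 (SE), adjusted p = 0.00348). The deposited length of 4E-T was 1043 bases in MEK F53S eggs and 1292 bases in wild-type MEK eggs, and with effective length as an offset its log2 fold change was -0.25 (adjusted p = 0.262). Rad23, whose levels are given above, was lower on the count scale (log2 fold change -0.37 ± 0.10 (SE), adjusted p = 0.0255), but without MEK F53S replicate 1 or 3 or wild-type MEK replicate 2 its adjusted p was 0.0534 to 0.12. Gyf, a translational repressor with a GYF domain, had 211, 306 and 237 TPM in MEK F53S eggs, against 335, 250.2 and 281 TPM in wild-type MEK eggs. It missed the threshold (log2 fold change -0.37 ± 0.13 (SE), adjusted p = 0.0577). Slip1 was not called either, at -0.20 (adjusted p = 0.21).

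Of the 2 nuclear genes of mitochondrial energy supply 1 rose, where 12.3% of all genes did. ATPsynbeta was higher in every MEK F53S library than in any wild-type MEK library (log2 fold change 0.58 ± 0.17 (SE), adjusted p = 0.0327), though without MEK F53S replicate 1, 2 or 3 or wild-type MEK replicate 2 or 3 its adjusted p was 0.0744 to 0.12. ND-49, a subunit of respiratory complex I, had 225, 199 and 209 TPM in MEK F53S eggs, against 198, 155 and 166 TPM in wild-type MEK eggs. Its TPM groups did not overlap and its count test did not pass (log2 fold change 0.26 ± 0.13 (SE), adjusted p = 0.159). Mitochondrially encoded reads were lower in MEK F53S eggs over the same libraries, as given above. Mpv17, an inner mitochondrial membrane protein that is in none of the lists, had 44.6, 37.9 and 55.8 TPM in MEK F53S eggs, against 22.8, 23.6 and 18.8 TPM in wild-type MEK eggs (log2 fold change 1.05 ± 0.23 (SE), adjusted p = 0.00992), and without MEK F53S replicate 3 its adjusted p was 0.0525. Almost all of the exon length of Mpv17, 94.6%, overlaps an antisense RNA that has no entry in the tables, and no source used here says whether the counting used strand. Its neighbour CG11076 had 69.6, 71.6 and 74.1 TPM in MEK F53S eggs, against 54.4, 35.7 and 34.1 TPM in wild-type MEK eggs (log2 fold change 0.56 ± 0.16 (SE), adjusted p = 0.0317), and without MEK F53S replicate 1, 2 or 3 or wild-type MEK replicate 2 or 3 its adjusted p was 0.0598 to 0.135. CG11076 and ATPsynbeta overlap on opposite strands for 12.98% and 8.01% of their exon lengths.

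Of 12 genes of transport, membrane and synapse, 3 were called lower, 2 higher and 7 not, where 12.9% of all genes tested were lower and 12.3% higher. A list of 12 genes is too small to set these counts apart from those shares. unc-13, which primes synaptic vesicles for release, had 25.4, 30.3 and 24.0 TPM in MEK F53S eggs, against 42.2, 37.7 and 44.3 TPM in wild-type MEK eggs. A gene known from neurons, it stood at 24 TPM or more in every library, and the fall left no overlap (log2 fold change -0.84 ± 0.11 (SE), adjusted p = 0.001). For 25.2% of its exon length unc-13 overlaps antisense transcripts on the other strand. Cals, the fly calsyntenin, had 17.7, 26.8 and 19.4 TPM in MEK F53S eggs, against 32.0, 27.5 and 29.6 TPM in wild-type MEK eggs (log2 fold change -0.77 ± 0.15 (SE), adjusted p = 0.00684). Ank, an ankyrin that ties membrane proteins to spectrin, had 104, 125 and 107 TPM in MEK F53S eggs, against 149, 123 and 121 TPM in wild-type MEK eggs, overlapping on TPM (log2 fold change -0.46 ± 0.10 (SE), adjusted p = 0.0112), and without MEK F53S replicate 1 or 3 its adjusted p was 0.0573 to 0.0638. The rises were in scarce transcripts. bt, the giant muscle protein projectin, held 222, 202 and 221 reads in MEK F53S eggs, against 56, 60 and 81 reads in wild-type MEK eggs, under 0.3 TPM throughout (log2 fold change 1.4 ± 0.36 (SE), adjusted p = 0.0204), and without MEK F53S replicate 1 or 3 or wild-type MEK replicate 2 its adjusted p was 0.0505 to 0.0837. Syt7, a calcium sensor of vesicle fusion, held 167, 174 and 151 reads in MEK F53S eggs, against 73, 50 and 42 reads in wild-type MEK eggs (log2 fold change 1.31 ± 0.38 (SE), adjusted p = 0.0321), and without MEK F53S replicate 1, 2 or 3 or wild-type MEK replicate 2 or 3 its adjusted p was 0.0557 to 0.116.

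Those of this list that were not called were Arf4, PMCA, Zip102B, Cadps, Gat, Ekar and Kif3C. Zip102B, a zinc transporter, and PMCA had all CPM values of the MEK F53S libraries under those of wild-type MEK, with log2 fold changes of -0.31 (adjusted p = 0.0929) and -0.24 (adjusted p = 0.104). Cadps, which acts in dense-core vesicle release, had 5.62, 4.74 and 5.55 TPM in MEK F53S eggs, against 4.57, 4.09 and 4.10 TPM in wild-type MEK eggs, apart on TPM, but its count test gave 0.05 (adjusted p = 0.849) and with effective length as an offset 0.84 (adjusted p = 0.0127). Gat, a GABA transporter, held 7 to 35 reads in MEK F53S eggs and 16 to 44 reads in wild-type MEK eggs. Kif3C, a kinesin, was listed at 9.16 TPM from 52 reads in wild-type MEK replicate 1, and at most at 0.0517 TPM in any other library.

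Among 20 genes in none of the role lists, 4 were higher, 3 lower and 13 not called, with 12.3% higher and 12.9% lower over all genes tested. CG31999 gave the lowest adjusted p of all rises. It had 16.6, 20.8 and 18.2 TPM in MEK F53S eggs, against 4.58, 3.20 and 5.06 TPM in wild-type MEK eggs, with the groups wide apart, and the call held without any single library (log2 fold change 1.96 ± 0.18 (SE), adjusted p = 0.000137). The similar rise of CG32017 was at a low level, with 236, 238 and 458 reads in MEK F53S eggs, against 40, 42 and 40 reads in wild-type MEK eggs (log2 fold change 2.59 ± 0.36 (SE), adjusted p = 0.00116). Its deposited length also differed, at 2452 bases in MEK F53S eggs and 3875 bases in wild-type MEK eggs, and with effective length as an offset the log2 fold change was 3.57 (adjusted p = 0.000919). The others that rose were Mpv17 and CG11076. The falls included MED26 and CG31998, the second at -0.73 (adjusted p = 0.00796).

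The 13 that were not called were anne, CG31997, CG33978, Arl4, yellow-h, CG1674, Rnf11, CG33941, CG1909, CG11360, CaMKII, CG11155 and CG33521. CaMKII, the calcium/calmodulin-dependent kinase of synaptic plasticity, had 74.2, 95.1 and 89.5 TPM in MEK F53S eggs, against 81.2, 94.7 and 89.4 TPM in wild-type MEK eggs (log2 fold change -0.24, adjusted p = 0.169). CG1674 held 14, 16 and 15 reads in MEK F53S eggs, against 0, 7 and 0 reads in wild-type MEK eggs, and with zfh2 it was 1 of 2 genes with at least 10 reads in every MEK F53S library and in no wild-type MEK library. Of similar pattern was yellow-h, with 44, 70 and 92 reads in MEK F53S eggs, against 8, 37 and 2 reads in wild-type MEK eggs. CG1909 had 19, 49 and 26 reads in MEK F53S eggs, against 14, 0 and 0 reads in wild-type MEK eggs. Both showed much spread (log2 fold change 1.70, adjusted p = 0.232, and log2 fold change 2.58, adjusted p = 0.206). The MEK F53S libraries did most to bring CG1909 over the read minimum. CG11155 ran the other way, with 52, 25 and 67 reads in MEK F53S eggs, against 77, 138 and 110 reads in wild-type MEK eggs (log2 fold change -1.52, adjusted p = 0.0674). For anne, Arl4, CG33941, CG11360 and Rnf11 the log2 fold changes lay between -0.25 and -0.15, and for the scarce CG31997, CG33978 and CG33521 between 0.33 and 1.0 with overlapping groups. Exons of Rnf11 overlap PMCA on the other strand for 56.1% of their length, those of CG33941 overlap Asator for 42.9%, and those of PIP4K overlap CG33521 for 20.03%. Over all roles, the 33 genes without a call included 15 of at least 10 TPM, with log2 fold changes between -0.37 and 0.29 of which 13 were negative, and 7 of the 33 had an unadjusted p under 0.05.

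Calls in both directions were interleaved along the chromosome. From the proximal to the distal end, the first 23 genes held 3 higher and 8 lower calls, the middle 22 held 3 and 7, and the last 22 held 6 and 7. Over all genes tested 12.3% were higher and 12.9% lower, and the parts of the chromosome were not compared by a test. Of 66 adjacent pairs, 10 shared a call and 7 had opposite calls. Runs of 1 direction held at most 3 genes. In the distal run Mpv17, CG11076 and ATPsynbeta were higher, between positions 1028675 and 1034917 of chromosome 4 (dm6), next to PlexA, which was lower and ends at 1027101. The neighbours CG31998 and Crk were lower, next to CG31999, which was higher and starts at 215009. On the plus strand zfh2 lies at 501810 to 540874, and on the minus strand fuss at 962341 to 978489, MED26 at 778516 to 788978 and Zyx at 1057365 to 1065001. Of 28 genes on the plus strand 5 were higher and 5 lower, and of 39 on the minus strand 7 were higher and 17 lower. The counts of the plus strand lie near the 12.3% higher and 12.9% lower of all genes tested, and the lower count of the minus strand lies above that share. The median log2 fold change was -0.21 on the plus strand and -0.31 on the minus strand. Shares of all genes were not computed by strand, and a difference between strands was not tested.

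**Figure D5:**
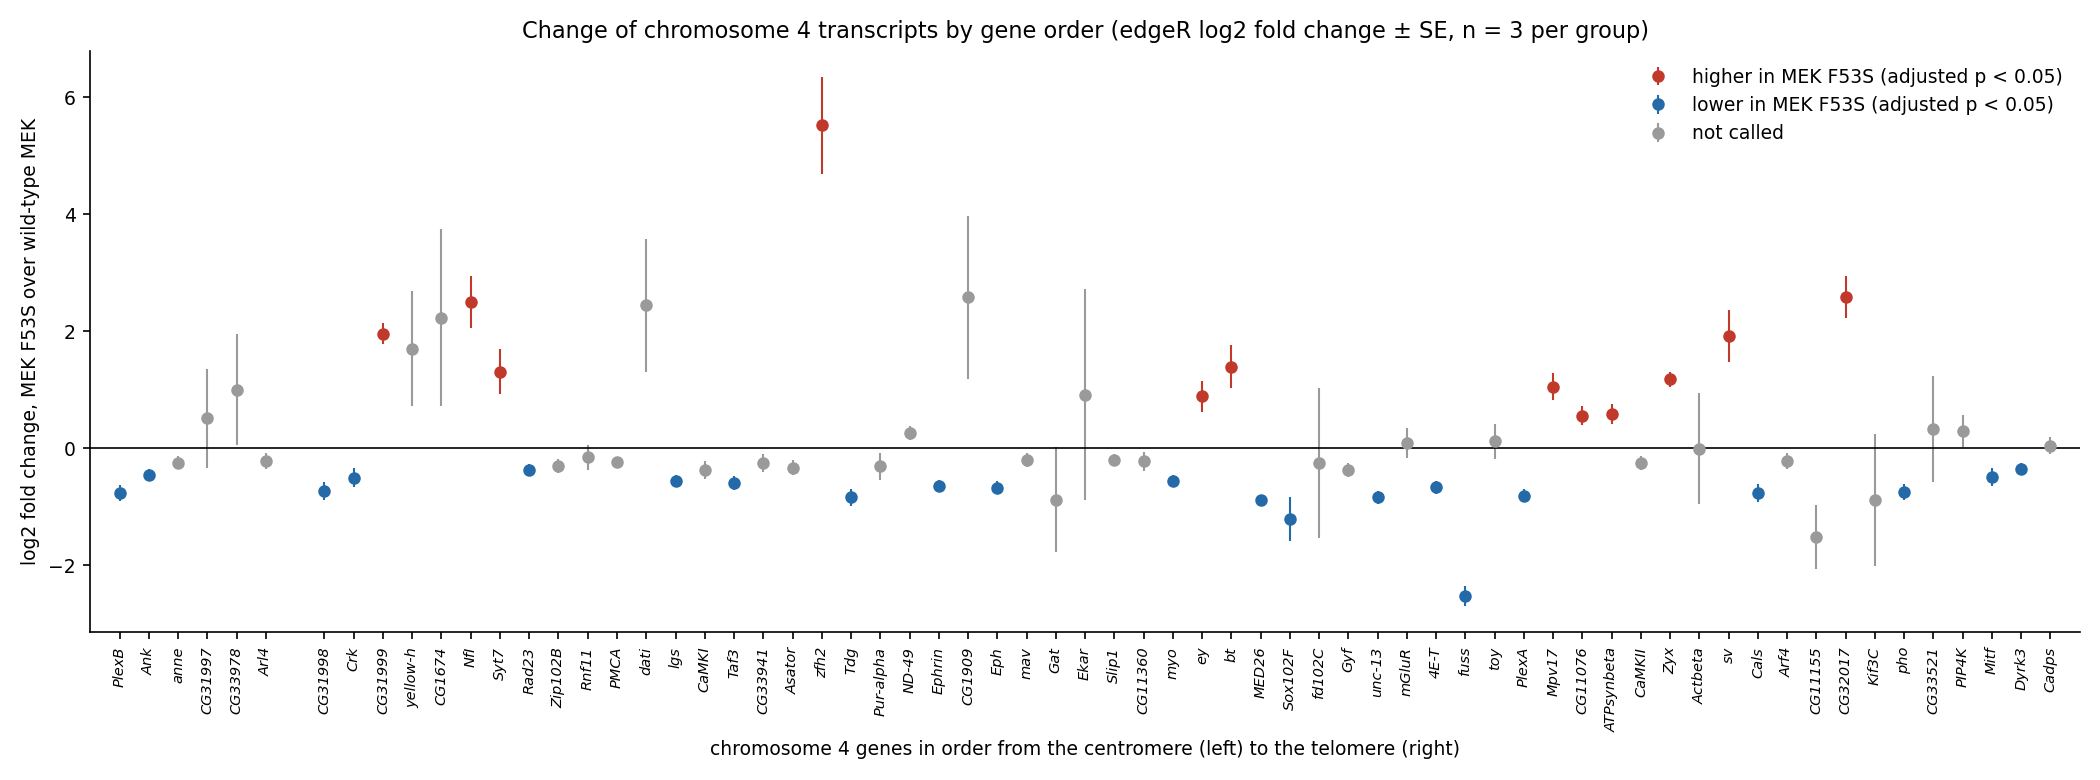
Log2 fold change between MEK F53S and wild-type MEK eggs, positive where MEK F53S was higher (with SE), for 66 of the 67 genes in their order along chromosome 4, coloured by call, with a line at 0. Higher and lower calls are interleaved along the chromosome, with fuss at -2.52 as the lowest value. The highest point is zfh2, which met the read minimum only through MEK F53S libraries, so that its difference is a description only.

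A list of 12 chromatin regulators, drawn up by hand, holds genes encoded on other chromosomes. Of these 5 were called lower and none higher, against 12.9% lower and 12.3% higher over all genes tested. The log2 fold change was negative in all 12 (median -0.42), and in 3482 of all 7539 genes tested. Su(var)2-HP2, an HP1a partner, had 61.4, 88.7 and 65.6 TPM in MEK F53S eggs, against 114.9, 109.8 and 121 TPM in wild-type MEK eggs (log2 fold change -1.03 ± 0.15 (SE), adjusted p = 0.00153). Kdm4B, a histone demethylase, had 51.6, 81.2 and 64.2 TPM in MEK F53S eggs, against 113, 122 and 139.5 TPM in wild-type MEK eggs (log2 fold change -1.03 ± 0.17 (SE), adjusted p = 0.00259). Both groups were apart in these genes. JIL-1, a histone H3 kinase, was lower at -0.47 (adjusted p = 0.00986). The gene for HP1a had 816, 923 and 930.0 TPM in MEK F53S eggs, against 939, 1350.2 and 1181 TPM in wild-type MEK eggs (log2 fold change -0.52 ± 0.16 (SE), adjusted p = 0.0378), and without MEK F53S replicate 1, 2 or 3 or wild-type MEK replicate 2 or 3 its adjusted p was 0.0755 to 0.134. For wde, the cofactor of eggless, the change was -0.49 (adjusted p = 0.0373), and without MEK F53S replicate 1 or 3 or wild-type MEK replicate 2 or 3 its adjusted p was 0.0884 to 0.14.

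Pof itself had 74.6, 94.9 and 63.4 TPM in MEK F53S eggs, against 106, 105 and 97.9 TPM in wild-type MEK eggs, with no overlap, and just missed the threshold (log2 fold change -0.55 ± 0.19 (SE), adjusted p = 0.06). The H3 lysine 9 methyltransferase gene egg had 95.9, 98.9 and 103 TPM in MEK F53S eggs, against 104, 105 and 108 TPM in wild-type MEK eggs, and its count test gave -0.07 (adjusted p = 0.681), a sign that turned to 0.14 with library size alone. For the other methyltransferases, Su(var)3-9 and G9a, the values were -0.38 (adjusted p = 0.0797) and -0.22 (adjusted p = 0.336). Su(var)3-7, ADD1 and Kdm4A were not called, at -0.28 (adjusted p = 0.0703), -0.28 (adjusted p = 0.077) and -0.30 (adjusted p = 0.139). The number of calls in this list was 3 without MEK F53S replicate 1 or 3 or without wild-type MEK replicate 2 or 3, and 2 with library size alone.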

How the data were processed

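RNA was taken from pooled unfertilized eggs and sequenced as directional libraries, per the labels' protocols. Per the submitters' processing notes, reads were quantified with Salmon 0.8.2 and the build is dm6. No source used here gives the transcript annotation, strand setting or RNA selection. The deposited tables hold estimated counts, TPM, length and effective length for 13943 features, per the file headers. The authors left the estimated counts unnormalised, and they need not be whole. The authors' TPM values are scaled for effective length and library. The other deposited columns, length and effective length, are in bases.

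Estimated counts were rounded and filtered with filterByExpr (minimum count 10, total 15), leaving 7539 genes. The 6 libraries were scaled by TMM and the groups of 3 tested in edgeR 4.0.16 (R 4.3.3) by quasi-likelihood, without covariates. Benjamini-Hochberg adjustment ran over all genes tested, and an adjusted p under 0.05 was a call. Fold changes (log2) are positive where MEK F53S was higher, with an SE from the quasi-likelihood F statistic. P-values set the difference between the groups against the spread between libraries within a group, estimated with the help of all genes. Each group is 1 line, so they do not cover the spread between lines. No pair of libraries of a group was alike within sampling noise (lowest chi-square per degree of freedom 29.8). The test was run first on simulated counts. Alternatives used limma 3.58.1, DESeq2 1.42.0 and other scalings. Positions came from the Ensembl annotation of the same assembly, and 112 identifiers had no position there. Overlaps of exons were computed from the same annotation.

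The genes, the gene lists and the tests were chosen with earlier results of these data known. The genes given in full are 28 of the 67: the 8 with the highest mean TPM, the 6 largest rises and 6 largest falls among called genes with at least 5 CPM and groups apart, up to 4 genes of lowest p per role list, and the most proximal and most distal call. Values of 1 gene are not reported here. Other genes given with values were named after their values were seen.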

Additional observations from a re-analysis of the deposited data

How the results depend on the processing

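The median log2 fold change of the set, -0.24, was -0.19 with upper-quartile factors, -0.0266 with library size only, -0.14 with effective length as an offset, -0.0301 and -0.0302 with limma at a pseudocount of 1 and of 0.1 and -0.32 with the length trend removed. It ranged from -0.30 to -0.20 when each library was left out in turn. The 22 lower calls were 6 with limma at either pseudocount, where 7.59% and 7.45% of all genes were lower. With a library left out they were 16 to 24, where 6.62% to 17.0% of all genes were lower. The 12 higher calls were 5 to 14 with a library left out, where 5.4% to 16.9% of all genes were higher. The 5 calls among chromatin regulators were 2 with library size only, 8 with DESeq2, 3 with limma at either pseudocount and 3 to 7 with a library left out. Without both MEK F53S replicates 1 and 3, chosen after seeing the data, there were 2 higher and 2 lower calls and 0 among the regulators by edgeR (4 at an unadjusted p under 0.05), DESeq2 not being run on it, on a single MEK F53S library assumed to vary like the others. The share of the set, 0.29 percentage points lower in MEK F53S eggs (a difference of -0.292), differed by -0.394 without mitochondrially encoded reads and by -0.0215 on TPM. Signs turned for Arf4 (0.0038, library size only), egg (0.14, library size only, and 0.15, length trend removed) and G9a (0.14, without both libraries). The cause was not tested. Of all values for the 40 named genes under 18 alternatives, 582 kept their direction and side of the threshold, 115 lost the call and 19 gained it.

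DESeq2 gave 12 higher and 26 lower calls, and its size factors in edgeR 12 and 22. With the replicate number as a block there were 8 higher and 19 lower calls, against 9.87% and 9.84% of all genes. Deviations of libraries with the same number correlated at -0.14, -0.13 and 0.19, and of the 3 pairs only replicate 3 correlated best with its own number. With 3 libraries per group these correlations cannot decide whether the numbers pair the libraries.

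Low depth limits genes under 1 TPM, which had as few as 0 reads in a library.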
